A study of Mus musculus with 8 samples.

Results

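The somatic cells of the fetal ovary were read here through 10 transcription factors (*Foxl2*, *Runx1*, *Irx3*, *Irx5*, *Gata4*, *Wt1*, *Nr5a1*, *Lhx9*, *Emx2* and *Nr2f2*), chosen by symbol as factors of the pregranulosa, coelomic epithelium and stromal lineages, out of 25239 gene symbols counted in each library. RNA-Seq was performed on whole ovaries of C57BL/6 mice at E14.5, embryonic days counted from mating. The 4 control libraries came from *Bmpr1a* fl/fl embryos and the 4 *Bmpr1a*-cKO libraries from *Bmpr1a* fl/fl; Oct4-Cre Cre/WT littermates, also called mutants here, and each library was a pool of 2 ovary pairs. Dams of every embryo received 4-hydroxytamoxifen (1 mg) together with progesterone (0.5 mg), first at 9.5 dpc, again at 10.5 dpc and last at 11.5 dpc, so the controls were exposed to the drugs as well. Cre is driven by *Oct4*, a gene of germ cells, and is induced by tamoxifen, so the somatic cells were meant to keep the BMP receptor *Bmpr1a*. The comparison therefore asks how genes of the soma stood in ovaries whose germ cells were meant to lose that receptor. The controls carry no Cre, so Cre itself and the deletion cannot be told apart.

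The fetal gonad forms as a thickening of the coelomic epithelium, the cell layer that lines the body cavity, and its somatic cells give rise to supporting cells, stroma and steroid-producing cells. In the ovary the supporting cells become pregranulosa cells, which enclose the germ cells and later form the granulosa of the follicle. WT1, GATA4, NR5A1 (SF1), LHX9 and EMX2 are needed early, when the gonad is set up, and several of them remain active in supporting cells. FOXL2, RUNX1, IRX3 and IRX5 mark the supporting cells of the ovary, and NR2F2 (COUP-TFII) marks stromal progenitors.

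In *Bmpr1a*-cKO ovaries, the factors of the supporting cells were lower and the stromal factor showed no detectable difference. *Foxl2* fell to 67.2% of control (95% interval 60.8 to 74.2%), *Irx3* to 72.8% (63.1 to 84.0%) and *Irx5* to 76.0% (63.7 to 90.7%). *Nr5a1*, *Runx1*, *Emx2* and *Wt1* fell by less, to between 81.6% and 87.3% of control. *Gata4*, *Nr2f2* and *Lhx9* did not pass the test, at 88.3%, 94.7% and 99.8% of control. The interval of *Nr2f2* (84.9 to 106%) overlapped those of *Irx5* and *Runx1* (74.5 to 91.6%). A difference between supporting cell and stromal factors as groups was not tested.

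The test was the quasi-likelihood F test of edgeR on counts, two-sided, with the false discovery rate (FDR) adjusted over the 14249 genes that passed the filter on low counts. All 10 factors passed that filter. At an FDR below 0.05, 7 of the 10 were lower and 0 were higher (DESeq2 and limma-voom also gave 7 and 0, and 0 were higher at an unadjusted p below 0.05). Of all genes tested, 29.8% passed this rule, 12.5% lower and 17.3% higher. The libraries of the genotypes did not overlap for 6 factors, all lower in the mutants, against 27.9% of all genes tested, 11.7% lower and 16.1% higher. A differentially expressed gene (DEG) also had an absolute Log2FC above 0.5. By that rule 1 factor, *Foxl2*, was a DEG, against 10.2% of all genes tested, 4.06% lower and 6.11% higher. The median Log2FC of the 10 factors was -0.27, and that of all genes tested was -0.0042. *Foxl2* lay just inside the fold-change threshold at a Log2FC of -0.57, and *Irx3* just outside it at -0.46. Libraries are pools of separate embryos, and the litter of each pool is not given. In whole ovaries, fewer cells of a type and less RNA per cell cannot be told apart.

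The libraries held 10622684 to 15365052 counts in control and 8562961 to 14887102 in *Bmpr1a*-cKO ovaries, and each factor other than *Irx5* had at least 696 counts in every library. Levels are CPM, the share of a library's counts that a gene holds, set to a common library total and scaled between libraries by the TMM method of edgeR. The TMM scaling factor lay between 1.00 and 1.03 for controls and between 0.972 and 0.990 for mutants. *Bmpr1a* itself averaged 218 ± 15.2 CPM among controls against 194 ± 10.4 CPM among mutants (SD over 4 libraries each, FDR = 0.0692 by edgeR), with overlap. Counts cover the whole gene and the soma keeps it, so this does not check the labels.

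*Foxl2* encodes a forkhead factor that marks pregranulosa cells and maintains ovarian identity in the granulosa lineage. It lies on chromosome 9 from 98955288 to 98958543 on the plus strand (mm10, as for all positions here). Its level was 120.2, 116, 122 and 113 CPM over control libraries 1 to 4, against 88.1, 82.4, 72.8 and 73.9 CPM over mutant libraries 1 to 4. All *Bmpr1a*-cKO libraries were below all controls, as were those of 11.7% of all genes tested. The Log2FC was -0.57 (standard error 0.067, FDR = 1.8e-05 by edgeR). By p-value, *Foxl2* ranked 61 among the 7218 genes with a negative Log2FC. The control libraries lay close together, with a coefficient of variation of 3.33%. With each library left out in turn the Log2FC ran from -0.62 to -0.54 and the FDR stayed at or below 0.000167. *Foxl2os*, a non-coding gene on the opposite strand that shares 12 exonic bases with *Foxl2*, fell from 16.8 to 12.6 CPM in the mean (Log2FC of -0.42, FDR = 0.00193 by edgeR). Whether strand was used in the counting is not given in the sources used here, so reads of such antisense pairs could have been mixed.

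*Runx1*, a runt-domain factor that is expressed in fetal ovarian supporting cells and shares target genes with FOXL2, lies on chromosome 16 from 92601466 to 92826149 on the minus strand. Its level was 88.4, 103, 92.3 and 101 CPM over the controls, against 87.8, 79.9, 77.0 and 74.0 CPM over the mutants. The highest *Bmpr1a*-cKO library was just below the lowest control, so the groups separated by a small gap. The Log2FC was -0.28 (standard error 0.070, FDR = 0.00808 by edgeR).

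*Irx3* and *Irx5* are neighbouring Iroquois homeobox genes on chromosome 8, *Irx3* from 91798525 to 91802067 on the minus strand and *Irx5* from 92357625 to 92376286 on the plus strand. Both are active in pregranulosa cells and serve the contact between oocyte and granulosa cells in the first follicles. *Irx3* had 150.3, 145, 139 and 133 CPM over the controls, against 132, 97.8, 96.1 and 88.7 CPM over the mutants. *Bmpr1a*-cKO library 1 lay next to the controls and apart from the other mutant libraries, although the groups did not overlap. The Log2FC of *Irx3* was -0.46 (standard error 0.097, FDR = 0.00235 by edgeR). Without *Bmpr1a*-cKO library 1 it was -0.59 (FDR = 4.69e-06 by edgeR), past the fold-change threshold. Over all libraries left out in turn it ran from -0.59 to -0.39, with an FDR at or below 0.0125 by edgeR.

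*Irx5* was counted far lower, at 8.38, 8.93, 9.07 and 8.70 CPM over the controls, against 7.74, 6.46, 6.38 and 6.27 CPM over the mutants. It rested on 61 to 138 counts per library. All mutant libraries were below all controls, and *Bmpr1a*-cKO library 1 was again the nearest to them. The Log2FC was -0.40 (standard error 0.119, FDR = 0.0211 by edgeR). Its call was lost without *Bmpr1a*-cKO library 2, 3 or 4, with an FDR of 0.0655, 0.0558 and 0.0634, while the Log2FC stayed between -0.46 and -0.37.

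The sequences of *Irx3* and *Irx5* are given because reads from closely related genes could have been shared between them in the counting. Their longest identical coding stretch, in capitals with 15 flanking bases on each side in lower case, holds 50 bases and lies in the homeobox. It is taken from GENCODE vM21 transcripts on mm10, 5′ to 3′ along each gene.
Irx3, chr8:91800578-91800657, minus strand: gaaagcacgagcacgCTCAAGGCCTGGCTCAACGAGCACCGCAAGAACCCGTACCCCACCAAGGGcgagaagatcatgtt
Irx5, chr8:92359654-92359733, plus strand: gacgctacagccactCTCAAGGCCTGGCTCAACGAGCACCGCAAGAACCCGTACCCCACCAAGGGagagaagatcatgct
*Nr2f2* and its relative *Nr2f1* share a stretch of 59 coding bases, the longest of 9 pairs of a factor and a relative that were compared, in the part that encodes the DNA-binding zinc fingers.
Nr2f2, chr7:70360037-70360125, minus strand: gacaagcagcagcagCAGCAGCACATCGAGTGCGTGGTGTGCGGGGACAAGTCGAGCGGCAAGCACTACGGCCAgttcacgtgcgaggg
Nr2f1, chr13:78198269-78198357, minus strand: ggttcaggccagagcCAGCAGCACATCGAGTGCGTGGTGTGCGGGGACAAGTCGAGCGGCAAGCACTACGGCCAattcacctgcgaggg
Both stretches are far shorter than the library size of about 520 bp that the labels give. In the other pairs, which set *Irx3* beside *Irx2*, *Gata4* beside *Gata6*, *Runx1* beside *Runx2*, *Lhx9* beside *Lhx2*, *Nr5a1* beside *Nr5a2*, *Emx2* beside *Emx1* and *Foxl2* beside *Foxl1*, the longest identical coding stretch was 14 to 26 bases.

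**Figure D1:**
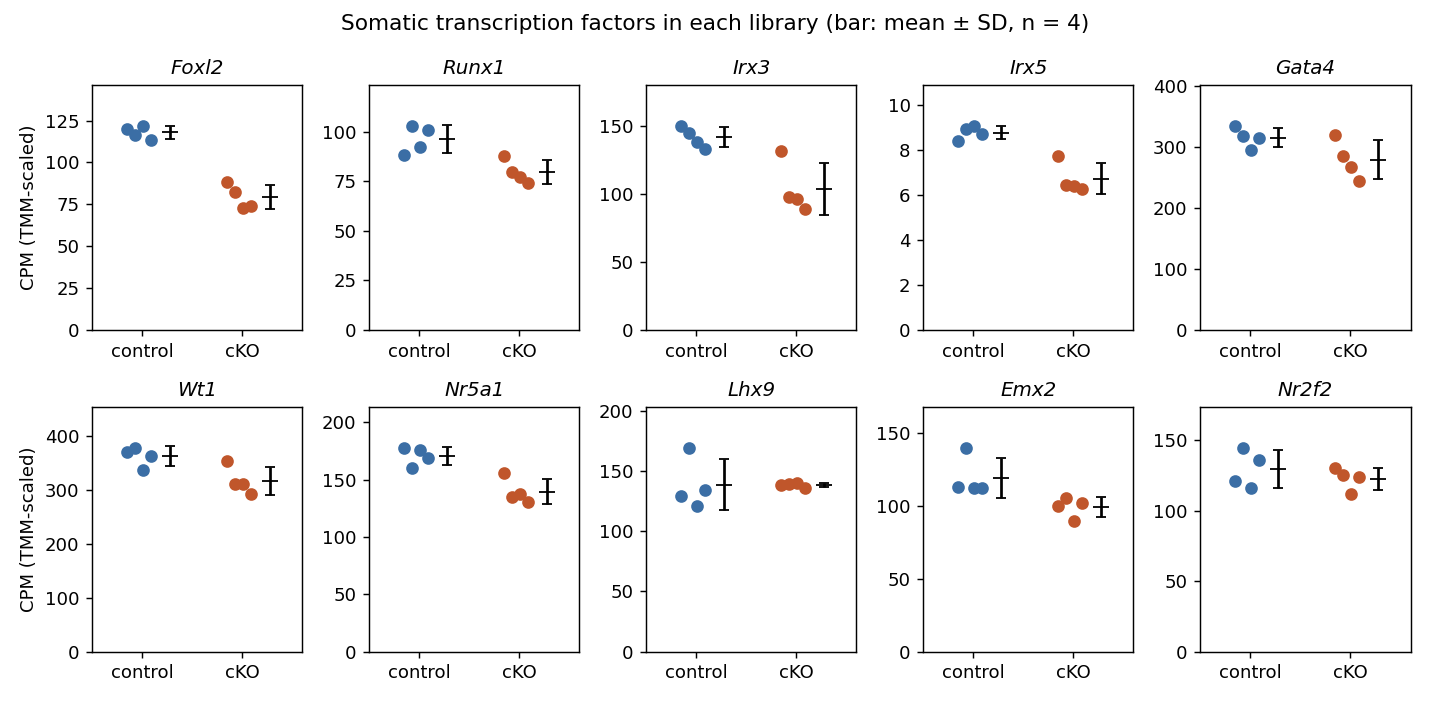
Level of each of the 10 transcription factors as TMM-scaled CPM (y axes start at 0) in the 4 control (blue) and 4 *Bmpr1a*-cKO (orange) libraries, with bars for the mean and SD. *Foxl2* separates most clearly, at 113 to 122 CPM over the controls and 72.8 to 88.1 CPM over the mutants, whereas the libraries of *Lhx9* and *Nr2f2* overlap.

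*Nr5a1* (*Sf1*) encodes a nuclear receptor that switches on steroid synthesis genes and is needed for gonads and adrenals to form. It lies on chromosome 2 from 38692656 to 38714542 on the minus strand. Its level was 178, 160.2, 176 and 169 CPM over the controls, against 156, 135, 138 and 131 CPM over the mutants, with all mutant libraries below all controls. The Log2FC was -0.29 (standard error 0.065, FDR = 0.00313 by edgeR), and the call held with any library left out, at an FDR of 0.000297 to 0.0168.

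*Wt1*, also on chromosome 2 (105126529 to 105173616, plus strand), encodes a zinc finger factor of the coelomic epithelium and of kidney and gonad formation. It was the factor with the highest CPM, at 370.3, 378, 336 and 363 CPM over the controls, against 354, 310.0, 309.9 and 291 CPM over the mutants. *Bmpr1a*-cKO library 1 lay within the control range. The Log2FC was -0.20 (standard error 0.067, FDR = 0.0385 by edgeR), and this call depended on single libraries. Leaving out a control gave an FDR of 0.0945 (library 1), 0.0683 (library 2) or 0.0661 (library 4), and leaving out a mutant gave 0.107 (library 2), 0.0997 (library 3) or 0.110 (library 4).

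*Gata4*, on chromosome 14 from 63198922 to 63271692 on the minus strand, encodes a zinc finger factor that starts the growth of the genital ridge. It had 334, 317, 295 and 314 CPM over the controls, against 319.9, 284, 266 and 244 CPM over the mutants, which overlapped. The Log2FC was -0.18 (95% interval -0.34 to -0.02, FDR = 0.0900 by edgeR). Without *Bmpr1a*-cKO library 1 it was -0.25 with an FDR of 0.00755 by edgeR. With any other single library left out it ran from -0.216 to -0.125 and had no call, at an FDR of 0.0660 to 0.246 by edgeR.

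*Bmpr1a*-cKO library 1 had the highest level among the mutant libraries for 8 of the 10 factors, and *Bmpr1a*-cKO library 4 the lowest for 7. Without *Bmpr1a*-cKO library 1, 8 factors were lower at an FDR below 0.05 and 2 (*Foxl2* and *Irx3*) were DEGs. Of the 14427 genes tested without that library, 5038 had an FDR below 0.05 and 1627 were DEGs. Without *Bmpr1a*-cKO library 3, 4 factors had an FDR below 0.05, and so did 3351 of 14409 genes tested, so the count over all genes moved in the same direction as that of the factors.

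*Emx2* encodes a homeobox factor of the urogenital ridge and lies on chromosome 19 from 59458372 to 59465357 on the plus strand. Its level was 113, 139.7, 111.7 and 111.8 CPM over the controls, against 99.9, 105, 89.2 and 102 CPM over the mutants. The groups did not overlap, although control library 2 stood above the other controls. The Log2FC was -0.26 (standard error 0.079, FDR = 0.0202 by edgeR), and without *Bmpr1a*-cKO library 3 it was -0.22 with an FDR of 0.0774 by edgeR. *Emx2os*, which shares 264 exonic bases with *Emx2* on the opposite strand, was at 38.4 CPM among controls against 36.2 CPM among mutants (Log2FC of -0.10, FDR = 0.529 by edgeR).

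*Lhx9*, a LIM homeobox gene of the coelomic epithelium and gonadal progenitors, lies on chromosome 1 from 138825186 to 138848577 on the minus strand. It had 129.5, 169.6, 121 and 135 CPM over the controls, against 138, 139.4, 139.9 and 136 CPM over the mutants. The mutant libraries lay within the control range and close together, with a coefficient of variation of 1.13% against 15.4% in control. The Log2FC was -0.0029 (95% interval -0.18 to 0.18, FDR = 0.985 by edgeR), so a change to below 88.1% or above 113% of control lies outside the interval.

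*Nr2f2*, the stromal factor, lies on chromosome 7 from 70351944 to 70366735 on the minus strand. Its level was 121, 145, 116 and 136 CPM over the controls, against 130.2, 125, 112 and 124 CPM over the mutants, which overlapped. The Log2FC was -0.08 (95% interval -0.24 to 0.08, FDR = 0.467 by edgeR). The interval runs from 84.9% to 106% of control, so a fall to the 67.2% of *Foxl2* lies outside it. The antisense gene *B130024G19Rik* shares 643 exonic bases with *Nr2f2* and held at most 4.96% of its CPM in any library, where *Foxl2os* reached 18.1% of *Foxl2* and *Emx2os* 42.3% of *Emx2*.

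**Figure D2:**
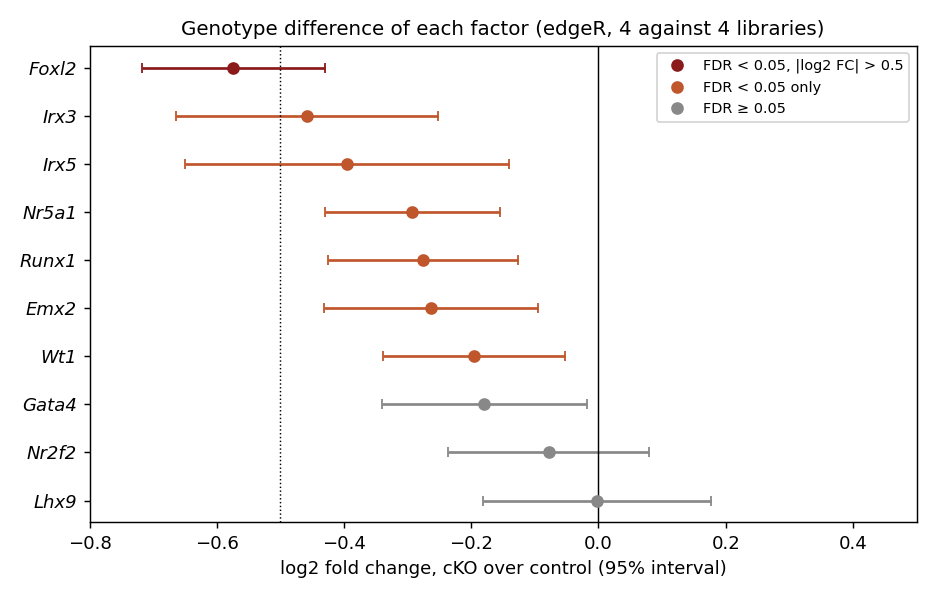
Log2 fold change of each factor in *Bmpr1a*-cKO over control ovaries with its 95% interval from edgeR, where colours mark the FDR and the dotted line the fold-change threshold of -0.5. *Foxl2* at -0.57 is past both thresholds, 6 further factors have an FDR below 0.05, and the intervals of *Nr2f2* and *Lhx9* include 0.

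Compared per length of exon, the control levels ran from 80.7 ± 4.16 CPM per kb for *Gata4* (SD, n = 4) to 2.80 ± 0.0976 CPM per kb for *Irx5*. Below *Gata4* the order in control was *Wt1* (58.4), *Irx3* (51.3), *Nr5a1* (40.3), *Emx2* (39.7), *Foxl2* (36.2), *Nr2f2* (15.02), *Lhx9* (14.6) and *Runx1* (8.00 CPM per kb). *Wt1* and *Irx3* overlapped in their control libraries, as did *Nr5a1* and *Emx2*, *Emx2* and *Foxl2*, and *Nr2f2* and *Lhx9*, so these neighbours were not separated by the spread. *Foxl2* went from 36.2 ± 1.21 to 24.4 ± 2.24 CPM per kb and *Irx3* from 51.3 ± 2.65 to 37.5 ± 6.96 CPM per kb. In *Bmpr1a*-cKO ovaries, *Nr5a1* and *Emx2* changed places in the order of means, and so did *Nr2f2* and *Lhx9*. These lengths join all annotated exons of a gene, so the scale is approximate for genes with many isoforms such as *Runx1*.

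The ratio of a pair of factors within a library does not depend on how libraries are scaled. For 6 pairs, the log2 ratio of CPM per kb was compared between genotypes by an exact permutation test over libraries (two-sided, smallest possible p = 0.0286), adjusted over the 6 ratios. *Foxl2* to *Nr2f2*, a pregranulosa factor to a stromal one, went from a log2 ratio of 1.28 ± 0.19 in control to 0.77 ± 0.08 in *Bmpr1a*-cKO libraries (SD over 4 libraries each), a difference of -0.50 with no overlap (exact p = 0.0286, adjusted p = 0.0571). In the 4 control libraries this log2 ratio was 1.40, 1.09, 1.47 and 1.14, and in the 4 mutant libraries 0.84, 0.80, 0.79 and 0.66. *Foxl2* to *Runx1* was lower in all 4 mutant libraries than in any control, with a mean log2 ratio going from 2.18 ± 0.15 to 1.88 ± 0.05 (difference of -0.30, exact p = 0.0286, adjusted p = 0.0571). *Lhx9* to *Emx2* went the other way, from -1.45 ± 0.07 to -1.18 ± 0.11 (difference of 0.27, exact p = 0.0286, adjusted p = 0.0571). These 3 ratios reached the smallest p that the design allows, which did not pass 0.05 after adjustment.

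The remaining ratios overlapped between genotypes. *Irx3* to *Irx5* was 4.17 ± 0.11 in control and 4.08 ± 0.11 in *Bmpr1a*-cKO libraries on the log2 scale (n = 4 each, exact permutation p = 0.343, adjusted p = 0.411), so the neighbouring genes kept *Irx3* about 18.0-fold higher in control and 16.9-fold higher in mutant ovaries. *Gata4* to *Wt1* was 0.47 ± 0.04 and 0.48 ± 0.06 (exact permutation p = 0.80, adjusted p = 0.80, n = 4 each). *Gata4* to *Nr5a1* was 1.00 ± 0.10 and 1.11 ± 0.08 (exact permutation p = 0.171, adjusted p = 0.257, n = 4 each).

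**Figure D3:**
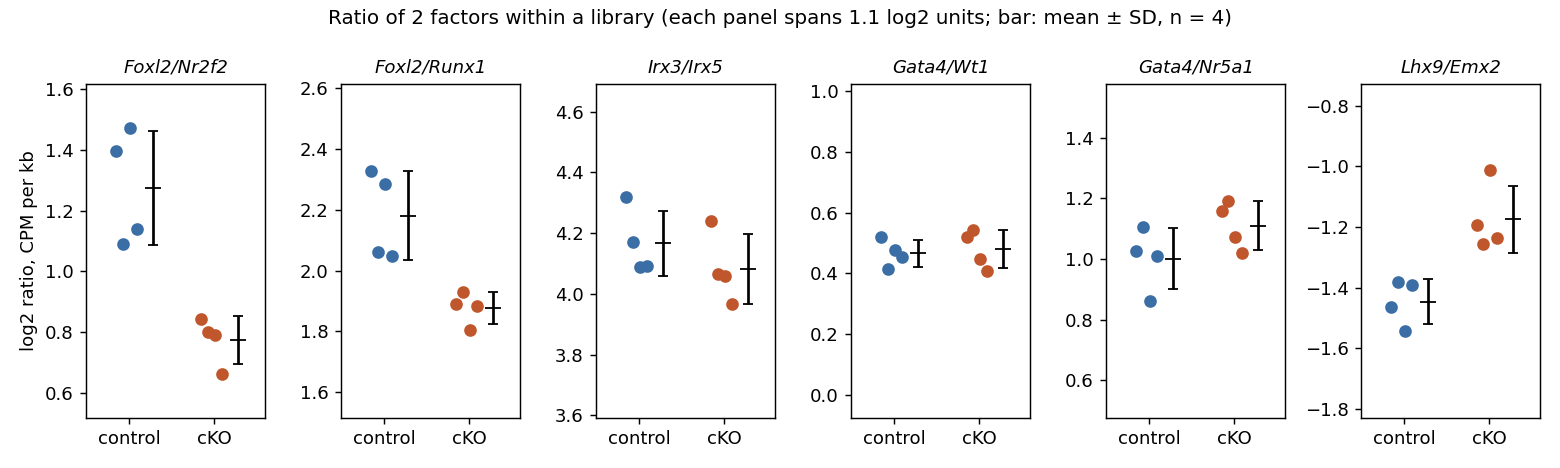
Log2 ratio of CPM per kb between 2 factors within each library, for 4 control (blue) and 4 *Bmpr1a*-cKO (orange) libraries, with the mean and SD, on y axes that all span the same distance. *Foxl2* to *Nr2f2* goes from 1.28 in control to 0.77 in *Bmpr1a*-cKO libraries without overlap, while *Gata4* to *Wt1* stays at 0.47 and 0.48.

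Other genes of the supporting lineage were read beside the factors. Of 13 genes listed for pregranulosa and ovarian supporting cells, 11 were lower and 0 higher at an FDR below 0.05 (limma-voom gave 12 and 0, DESeq2 11 and 0, and 0 were higher at an unadjusted p below 0.05). Over all genes tested, 12.5% were lower and 17.3% higher by this rule. The median Log2FC of the list was -0.31. *Kitl*, the ligand of the germ cell receptor KIT and the gene of the list with the highest CPM, was at 633 ± 85.0 and 579.8 ± 33.8 CPM and did not pass the test (Log2FC of -0.13, FDR = 0.290 by edgeR).

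The following genes of the list were picked after their values were seen. *Rspo1*, which encodes a secreted activator of WNT signalling and drives ovarian fate, went from 64.0 ± 3.70 to 45.8 ± 2.84 CPM (Log2FC of -0.48, FDR = 0.000112 by edgeR). Its control libraries had 68.0, 60.2, 66.2 and 61.6 CPM and the mutant libraries 44.8, 49.7, 43.0 and 45.9 CPM. *Wnt4*, the WNT ligand of the supporting cells, was lower at a Log2FC of -0.35 (FDR = 0.0104 by edgeR), with *Bmpr1a*-cKO library 1 inside the control range. *Fst*, which encodes the activin antagonist follistatin, had a Log2FC of -0.31 (FDR = 0.00358 by edgeR), and *Bmp2*, a BMP ligand made by the ovarian soma, one of -0.35 (FDR = 0.00307 by edgeR).

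Markers of the other somatic lineages mostly did not pass the test, and neither did most genes. Of all genes tested, 29.8% had an FDR below 0.05, 12.5% lower and 17.3% higher. Of 14 stromal genes tested, 2 were higher and 0 lower (limma-voom and DESeq2 also gave 2 and 0, and 0 were lower at an unadjusted p below 0.05), and the median Log2FC was -0.02. The share that was higher is near the 17.3% of all genes tested. The 2 that rose were hedgehog targets, *Gli1* (5.67 ± 0.453 to 10.8 ± 1.92 CPM, Log2FC of 0.91, FDR = 0.000194 by edgeR) and *Ptch1* (Log2FC of 0.25, FDR = 0.0181 by edgeR). *Col1a1*, a fibrillar collagen and the most highly counted stromal gene, had a Log2FC of -0.06 (FDR = 0.729 by edgeR). For the coelomic epithelium, 9 of 11 listed genes were tested, 2 keratin genes (*Krt8* and *Krt18*) were lower and 0 were higher (1 at an unadjusted p below 0.05, and 0 by limma-voom and DESeq2), with a median Log2FC of -0.04. *Podxl*, the most highly counted of them, was at 661 ± 41.5 CPM among controls against 615 ± 34.8 CPM among mutants (FDR = 0.252 by edgeR). Of 9 endothelial genes, 0 passed at an FDR below 0.05 (also 0 by limma-voom and DESeq2, and 1 at an unadjusted p below 0.05), with a median Log2FC of -0.13. *Kdr*, a VEGF receptor and the most highly counted of them, was at 109 ± 5.99 and 101 ± 6.33 CPM (FDR = 0.205 by edgeR).

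Smaller lists are given by their counts, to be read against the 12.5% of all genes tested that were lower and the 17.3% that were higher, and their part in the values of the factors was not tested. The summed levels of the macrophage, Sertoli cell and steroidogenic lists did not overlap between genotypes, and those of the mesonephric, erythroid and germ cell lists did. The median Log2FC was 0.56 for macrophage, -0.45 for Sertoli cell, -0.50 for steroidogenic, -0.27 for mesonephric, -0.09 for erythroid and 0.15 for germ cell genes. The summed level of the 9 macrophage genes was 38.7 to 49.4 CPM over the controls and 52.5 to 68.5 CPM over the mutants, and 5 of 8 tested were higher. The 4 DEGs among them were *C1qc*, *C1qb* and *C1qa*, of the complement component C1q, and *Adgre1*, with a Log2FC of 0.89, 0.70, 0.69 and 0.78, and *Csf1r*, the most highly counted, was at 11.5 ± 1.03 and 14.8 ± 1.19 CPM (Log2FC of 0.37, FDR = 0.0142 by edgeR). The 8 mesonephric genes summed to 24.8 to 28.7 and 18.3 to 25.5 CPM, with 1 of 5 tested lower (*Gata3*) and *Wnt9b* and *Wnt7b* among the genes too low to be tested. *Pax8*, the most highly counted of them, was at 15.3 ± 2.25 and 12.9 ± 3.13 CPM (FDR = 0.195 by edgeR). The Sertoli cell list was read in ovaries, so its values are not taken to show a population of such cells. Of 8 tested Sertoli cell genes, 3 were lower (*Sox9*, *Mro* and *Cyp26b1*) and 0 higher (also 0 by limma-voom, DESeq2 and at an unadjusted p below 0.05), and the list summed to 48.9 to 55.8 CPM over the controls and 38.9 to 43.3 CPM over the mutants. *Cyp26b1*, which breaks down retinoic acid, was the DEG among them at 4.23 ± 0.471 and 2.81 ± 0.518 CPM, and *Aard*, the most highly counted, was at 15.9 ± 1.15 and 13.5 ± 1.42 CPM (FDR = 0.102 by edgeR). Of 5 tested steroidogenic genes, *Hsd3b1*, the gene of a steroid dehydrogenase, was lower at a Log2FC of -0.63 (FDR = 0.00561 by edgeR), and the list summed to 58.6 to 68.5 and 39.9 to 57.6 CPM. Of 3 tested erythroid genes, *Hbb-y* was lower (Log2FC of -0.30, FDR = 0.0326 by edgeR), and 4 adult globin genes were listed at 0 in every library. *Hbb-y* averaged 216 CPM in the same libraries, so these zeros are not taken to show absent RNA, and their source was not tested. The 11 germ cell genes summed to 694 to 925 CPM over the controls and 745 to 1147 CPM over the mutants, which overlapped, with 4 of 10 tested higher and 2 lower, all DEGs. *Dppa4*, a pluripotency-associated gene, had a Log2FC of 1.84, *Mael* -0.80, *Dnd1* 0.78, *Nanos3* 0.76 and *Dazl*, an RNA-binding factor of germ cells and the most highly counted of the list, 0.63.

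**Figure D4:**
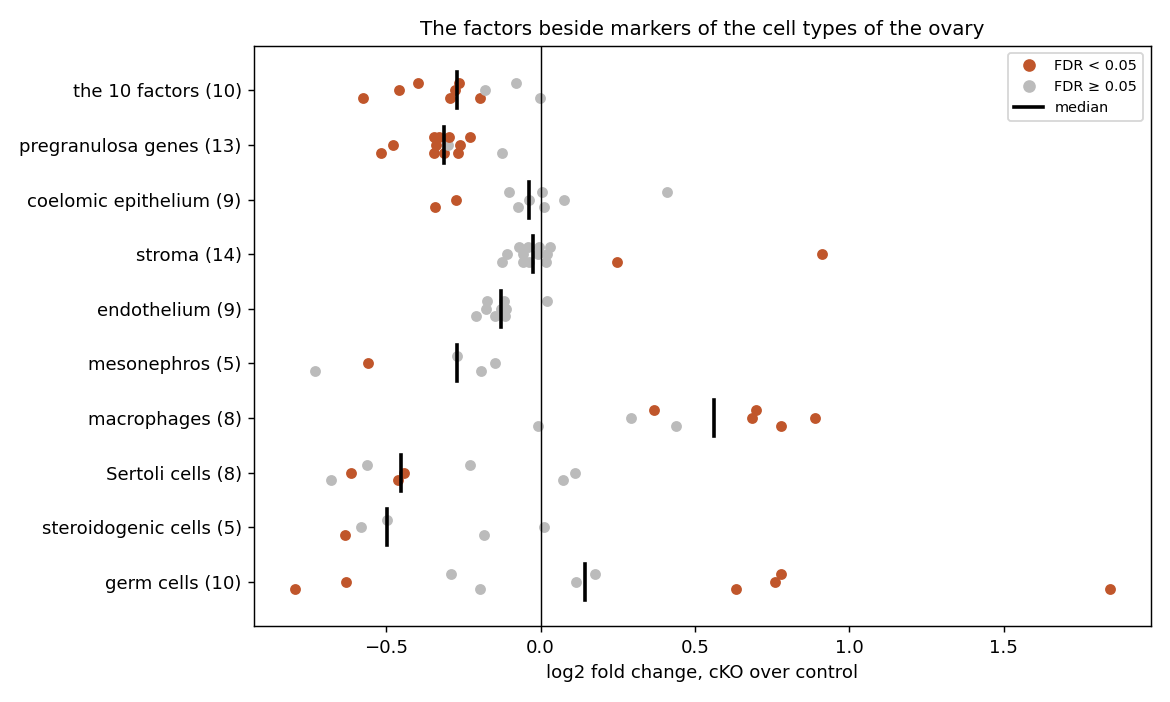
Log2 fold change of every tested gene in the set of 10 factors and in each marker list (number tested in parentheses), coloured by FDR, with the median as a black line. All 13 pregranulosa genes lie below 0 around a median of -0.31, the stroma and coelomic epithelium lists centre near 0, at -0.02 and -0.04, and the Sertoli cell, steroidogenic and mesonephros lists have medians of -0.45, -0.50 and -0.27. The samples are ovaries, so the Sertoli cell list is not taken to show a population of such cells.

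Relatives of the factors from the same gene families were mostly low. Of 19 such genes, 14 passed the filter, and 4 were lower and 2 higher, all of them DEGs. Of all genes tested, 4.06% were DEGs that were lower and 6.11% DEGs that were higher. The counts come from whole ovaries, germ cells included, so the cells that held each relative are not known. *Gata2*, a GATA factor, had the largest change of these, from 64.6 ± 9.92 to 19.6 ± 1.69 CPM (Log2FC of -1.71, FDR = 4.07e-08 by edgeR). *Gata6*, which is active beside *Gata4* in the gonadal soma, was at 155 ± 10.96 and 138 ± 18.5 CPM (Log2FC of -0.17, FDR = 0.148 by edgeR). *Nr5a2*, the relative of *Nr5a1*, was higher, at 5.01, 6.72, 9.92 and 6.05 CPM over the controls, against 15.005, 13.8, 12.4 and 13.1 CPM over the mutants (Log2FC of 0.98, FDR = 0.000355 by edgeR). *Irx2*, of the Iroquois family, was lower at 3.84 ± 0.728 and 2.04 ± 0.475 CPM (Log2FC of -0.90, FDR = 0.00476 by edgeR). *Egr1*, a zinc finger relative of *Wt1*, was higher at a Log2FC of 0.69, and *Lhx2* and *Gata3* were lower at -0.66 and -0.56. *Gata1*, *Gata5*, *Runx2*, *Lhx1*, *Nr2f1* and *Nr2f6*, with mean levels of 1.15 to 84.0 CPM, had an FDR of 0.115 or above by edgeR.

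A further list held 18 transcription factors and cofactors of the gonad. Here 2 were higher and 2 lower at an FDR below 0.05, with a median Log2FC of -0.06. Over all genes tested, 17.3% were higher and 12.5% lower by this rule, and neither count of the list exceeds that share. As for the relatives above, the cells that held these genes are not known. *Six4*, a homeobox factor upstream of *Nr5a1* in the gonad, rose from 19.5 ± 3.52 to 36.3 ± 5.21 CPM (Log2FC of 0.91, FDR = 5.93e-05 by edgeR), and *Cbfb*, the partner of the RUNX proteins, had a Log2FC of 0.31 (FDR = 0.0237 by edgeR). The 2 that were lower were *Lhx2* and *Osr1*. *Sox4*, the most highly counted of this list, was at 349.9 ± 6.00 and 319.5 ± 22.6 CPM (Log2FC of -0.13, FDR = 0.114 by edgeR).

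The size of the differences depended on what the libraries were scaled to. Scaled to a list of germ cell genes, the Log2FC of *Foxl2* was -0.86, and 6 factors were DEGs. Of the 14249 genes tested, 2917 were DEGs under germ cell scaling, 2559 of them lower. The median of all genes also shifted to -0.32, and members of the germ cell list rose and fell. Scaled to 36 somatic genes that include the pregranulosa list, *Foxl2* was at -0.47 (FDR = 0.000184 by edgeR), *Irx3* at -0.36 (FDR = 0.00635 by edgeR) and *Nr5a1* at -0.19 (FDR = 0.0373 by edgeR), and these 3 kept an FDR below 0.05. Over all genes, 4277 had an FDR below 0.05 with somatic scaling, 830 lower and 3447 higher. Under that scaling *Runx1*, *Irx5*, *Wt1* and *Emx2* had an FDR of 0.0765, 0.0798, 0.312 and 0.194, and *Nr2f2* and *Lhx9* turned to 0.026 and 0.10, where the median of all genes was 0.10. Scaled to the 23 stroma and coelomic epithelium genes alone, an alternative chosen after seeing the data, 7 factors had an FDR below 0.05, with a Log2FC of -0.59 for *Foxl2*. Over all genes, 3523 had an FDR below 0.05 with that scaling, 1674 lower and 1849 higher.

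**Figure D5:**
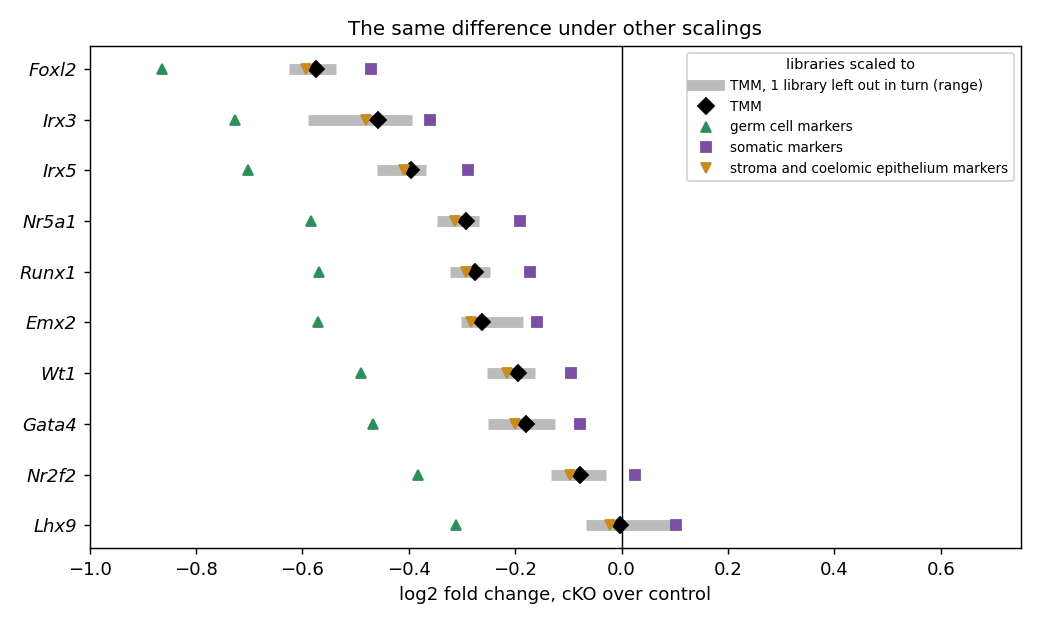
Log2 fold change of each factor with libraries scaled by TMM (black), to germ cell markers (green), to somatic markers (purple) or to stroma and coelomic epithelium markers (yellow), with a grey bar for the range when 1 library was left out. *Foxl2* stays between -0.86 and -0.47, whereas *Lhx9* runs from -0.31 to 0.10.

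The genes whose levels moved most like *Foxl2* over the 8 libraries, once the genotype means were subtracted, were *Treml2*, *Sash3* and *Sybu*, with Pearson's r of 0.994, 0.979 and 0.972. For *Nr2f2* they were *Zadh2*, *Dmd* and *Wdr26*, with r of 0.987, 0.987 and 0.979. These are the highest of all genes tested over 8 points that share depth and scaling, and *Treml2* and *Sash3* had means of only 2.15 and 1.09 CPM.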

How the data were processed

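Reads from strand-specific libraries of total RNA were trimmed by the authors with Trimmomatic 0.39 and mapped to mm10 and counted with STAR 2.5.2 (versions from the submitters' processing notes), and the deposited files hold counts per gene symbol, whole numbers without normalization. The annotation and strand setting are not given in the sources used here. A deposited CPM table of the same libraries was not used. Totals were 8562961 to 15365052 counts per library.

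Genes were kept by filterByExpr, libraries scaled by TMM, and genotype tested by the quasi-likelihood F test (edgeR 4.0.16, R 4.3.3; limma 3.58.1 and DESeq2 1.42.0 as alternatives). No sample was left out. Single-library ratios carried a prior count of 2. Exon lengths, positions and sequences came from GENCODE vM21. The procedure was tested on simulated data. The 10 factors, lists and tests were chosen with earlier results of these data known. Genes named from a list are its up to 4 largest DEGs and the gene with the highest CPM, unless stated. Other relatives are named at a mean of 1 CPM or more. Other genes named beside a count of 5 or fewer were chosen after their values were seen. Some genes of the marker lists enter the counts and sums but are not reported here by name.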

Additional observations from a re-analysis of the deposited data

Results flagged for a closer look

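Each factor's CPM and each ratio was examined for a library far from the other 3 of its genotype by Dixon's criterion (critical value 0.829), in 32 groups of 4 libraries, of which chance flags about 1 in 20. *Irx5* in *Bmpr1a*-cKO library 1, at 7.74 CPM, stood above the other mutant libraries, with a gap of 0.869 of the range. *Emx2* in control library 2, at 139.7 CPM, stood above the other controls, with a gap of 0.954 of the range. Without control library 2, the Log2FC of *Emx2* was -0.19 (FDR = 0.0425 by edgeR), and without *Bmpr1a*-cKO library 1 that of *Irx5* was -0.46 (FDR = 0.00972 by edgeR).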

How the results depend on the processing

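Over 21 alternative settings for each of the 10 factors, 187 of 210 values kept their direction and their side of an FDR of 0.05, 14 lost the call, 4 gained it and 5 turned sign. *Foxl2*, *Irx3* and *Nr5a1* kept their calls under every setting run. The 5 that turned had no call: *Lhx9* at 0.0088 with limma-voom, 0.10 with somatic marker scaling, 0.0049 with the replicate block and 0.098 without control library 2, and *Nr2f2* at 0.026 with somatic marker scaling. *Lhx9* ran from -0.068 to 0.098 over all libraries left out, and stayed negative in the others. *Gata4* gained a call with upper-quartile scaling (FDR = 0.0496 by edgeR), library size alone (0.0331), the replicate block (0.0296) and without *Bmpr1a*-cKO library 1. The number of factors that were DEGs was 2 with library size alone, 6 with germ cell and 0 with somatic marker scaling (where 3 had an FDR below 0.05 by edgeR). It was 1 to 2 with a library left out, and over all genes it was 1288 to 1627. The number of factors at an FDR below 0.05 was 4 to 8 with a library left out, and over all genes it was 3101 to 5038. Over all genes, germ cell marker scaling gave 2917 DEGs (358 higher and 2559 lower) against 1449 (871 higher and 578 lower), library size alone split them into 743 higher and 722 lower, upper-quartile scaling into 773 and 666, and somatic marker scaling into 1246 and 383. The cause was not tested. The 6 ratios moved by less than the spread between replicates. Same-numbered libraries were not paired: their deviations correlated at -0.09 to 0.20, and 2 of 4 control and 3 of 4 mutant libraries correlated best with their own number. With the replicate number as a block, 8 factors had an FDR below 0.05, as did 4771 of the 14249 genes tested. By the DEG rule that fit gave 1457 genes, of which 1 was a factor. Depth limits *Irx5*, at 61 to 138 counts.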
